A study of Homo sapiens with 12 samples.

Results

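The HOXB cluster was examined as the set of open chromatin sites on chromosome 17 from HOXB1 to HOXB13 with 50 kb on each side, chr17:48478526-48778750 on hg38, a window of 300.2 kb. The members were the 55 merged regions of overlapping peaks in this window, of 334907 such regions in all, and 208 called peaks fell in the window. Bulk ATAC-seq, in which a transposase cuts accessible DNA, had been performed on 3 human acute myeloid leukemia (AML) cell lines. OCI-AML3 carries mutant NPM1, whereas the MLL1 gene is rearranged in MOLM13 and MV4-11. Each line had 2 control libraries and 2 libraries from cells exposed to 500 nM VTP50469, an inhibitor of the Menin-MLL1 interaction, for 16 h, which gave 6 groups and 12 libraries, all from cells cryopreserved before nuclei were isolated. MOLM13 and OCI-AML3 were grown in RPMI and MV4-11 in IMDM, so line and medium cannot be told apart for MV4-11. With 1 NPM1-mutant line, every comparison is between lines and not between genotypes. The labels do not say that the 2 libraries of a group came from separate cultures, so p-values measure the spread between libraries, which may be technical.

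HOX genes encode homeodomain transcription factors that pattern the body axis and, in blood, sustain stem and progenitor cells. Their order along the chromosome follows their order of use, with HOXB1 at the anterior end of this cluster and HOXB13 at the posterior end, and all HOXB genes lie on the minus strand. MLL1, recruited with Menin, keeps HOX genes active in progenitors. MLL1-rearranged AML is known mainly for high HOXA expression with MEIS1, whereas NPM1-mutant AML is known for high expression of HOXA and HOXB genes. The cluster also encodes the microRNAs miR-10a and miR-196a, which repress HOX and other messages, several antisense transcripts, and HOXBLINC, a long noncoding RNA described as an activator of anterior HOXB genes.

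Sequences from RefSeq (GRCh38.p14) around a start are shown for a promoter with no call and for 2 whose calls differed between libraries. Of the 10 HOXB genes the promoter table held HOXB1. Capitals in the promoters mark bases inside a called site, and a promoter without capitals had no site in any of the 12 libraries. The HOXB1 promoter, chr17:48530962-48531261 on the minus strand, had none. The HOXB-AS4 promoter, chr17:48628448-48628747 on the plus strand, had 33 bases at its 3′ end inside a site called in MV4-11 alone. The PRAC2 promoter, chr17:48722935-48723234 on the plus strand, had 235 bases inside a site called in 3 libraries. It surrounds a start inside the gene. The outer end of PRAC2, at chr17:48718666, had no peak within 1 kb in any library.
HOXB1: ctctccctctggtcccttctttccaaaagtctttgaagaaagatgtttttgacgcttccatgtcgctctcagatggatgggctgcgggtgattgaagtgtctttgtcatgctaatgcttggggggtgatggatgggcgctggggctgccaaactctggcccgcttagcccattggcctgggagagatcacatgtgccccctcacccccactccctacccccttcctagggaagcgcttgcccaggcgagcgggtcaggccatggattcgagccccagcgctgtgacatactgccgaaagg
HOXB-AS4: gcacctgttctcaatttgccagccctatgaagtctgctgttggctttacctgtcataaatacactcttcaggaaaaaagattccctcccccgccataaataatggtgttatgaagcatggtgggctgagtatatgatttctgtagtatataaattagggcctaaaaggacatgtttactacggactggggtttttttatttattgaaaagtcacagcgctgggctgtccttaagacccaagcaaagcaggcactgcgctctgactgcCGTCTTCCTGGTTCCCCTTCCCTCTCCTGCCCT
PRAC2: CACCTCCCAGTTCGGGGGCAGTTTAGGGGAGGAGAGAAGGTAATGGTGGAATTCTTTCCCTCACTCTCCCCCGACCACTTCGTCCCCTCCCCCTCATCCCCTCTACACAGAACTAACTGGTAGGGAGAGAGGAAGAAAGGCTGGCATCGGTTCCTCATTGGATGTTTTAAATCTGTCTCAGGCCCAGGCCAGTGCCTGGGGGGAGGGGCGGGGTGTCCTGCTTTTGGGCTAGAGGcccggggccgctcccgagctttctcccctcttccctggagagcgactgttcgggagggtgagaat

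Both microRNA genes lay outside every called site. The mature strands are shown with the seed, bases 2 to 8, in capitals, since it sets which messages they pair with, and the 2 seeds differ. The MIR10A hairpin, chr17:48579838-48579947, was 0.99 kb from the nearest site, the one called at HOXB4 in 1 library. The MIR196A1 hairpin, chr17:48632490-48632559, was 3.63 kb from the HOXB-AS4 site.
miR-10a-5p: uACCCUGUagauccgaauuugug
miR-196a-5p: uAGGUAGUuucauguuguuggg

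Short motifs were counted on both strands of these 3 promoters. The letters CCAAT, which 34.6% of 35116 promoters of this length held, occurred once in HOXB1 and once in PRAC2. GAGGAAG, held by 13.6%, occurred once in PRAC2. TGACAG, held by 15.8%, occurred once in HOXB-AS4, and the CTCF letters AGGGGGC, held by 14.4%, once in HOXB1. The E-box letters CACGTG (7.26% of promoters) and the RUNX letters TGTGGT (13.1%) were in none of the 3 windows. Nor were the AP-1 letters TGACTCA (4.95%) or AGGTGGC (6.76%), another form of the CTCF letters. Of the PBX and HOX letters only the spellings TGATTGAT (0.484%) and TGATTTAT (0.846%) were searched, and neither occurred. Other spellings were not counted, so PBX and HOX sites may still be present.

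Libraries held between 68670 and 145364 peaks, most in MV4-11, and the median peak rested on 9 to 13 reads over its summit. Absence of a peak means only that no call was made there. The promoters of MEN1, KMT2A, PSIP1 and NPM1 were called in all 12 libraries, as were those of MEIS1, MEIS2, PBX3, PBX4 and PKNOX1 of the TALE family, whose products bind DNA with HOX proteins. Of 8 myeloid markers, SPI1, CEBPA, LYZ, PTPRC and FLT3 were called in all 12 libraries, while MPO was called in all 8 MLL1-rearranged libraries and in no OCI-AML3 library. The promoters of CD3E, MS4A1, KLF1, GATA1 and EPOR were called in none. Among lymphoid markers CD8A, BCL11B and EBF1 were called in all 12. Of the other myeloid markers, CSF3R was called in 7 libraries and CD33 in 1. The B cell markers PAX5 and CD79A were called in 8 and 7. Of 5 erythroid and 4 epithelial markers none was called in all 12, but 1 erythroid and 3 epithelial markers were called in 1 or more libraries, EPCAM in 4.

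Peaks in the HOXB window were close in strength to those of all regions. Fold enrichment compares the reads over a summit with those around it in one library. Its median was 5.35 over the window's peaks, beside 5.7 over all regions, and the median −log10 q was 5.48 beside 6.06. The peaks rested on 4 to 32 reads, with a median of 10. Of the 55 sites, 26 were called in a single library, which is 47.3% beside 55.3% of all regions. Those single sites, 13 in MV4-11, 12 in OCI-AML3 and 1 in MOLM13, had folds from 3.07 to 6.61, and 7 of them came from MV4-11 VTP50469 replicate 2, the library with the most peaks. The other 29 sites were called in 2 or more libraries, with 22 in 4 or more and 3 in all 12. By line, 17 sites were called in at least 1 MOLM13 library, 38 in MV4-11 and 35 in OCI-AML3, and 12 sites in all 3 lines. Over the genome 15.6% of the 149822 regions called in 2 or more libraries were called in all 12.

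**Figure D1:**
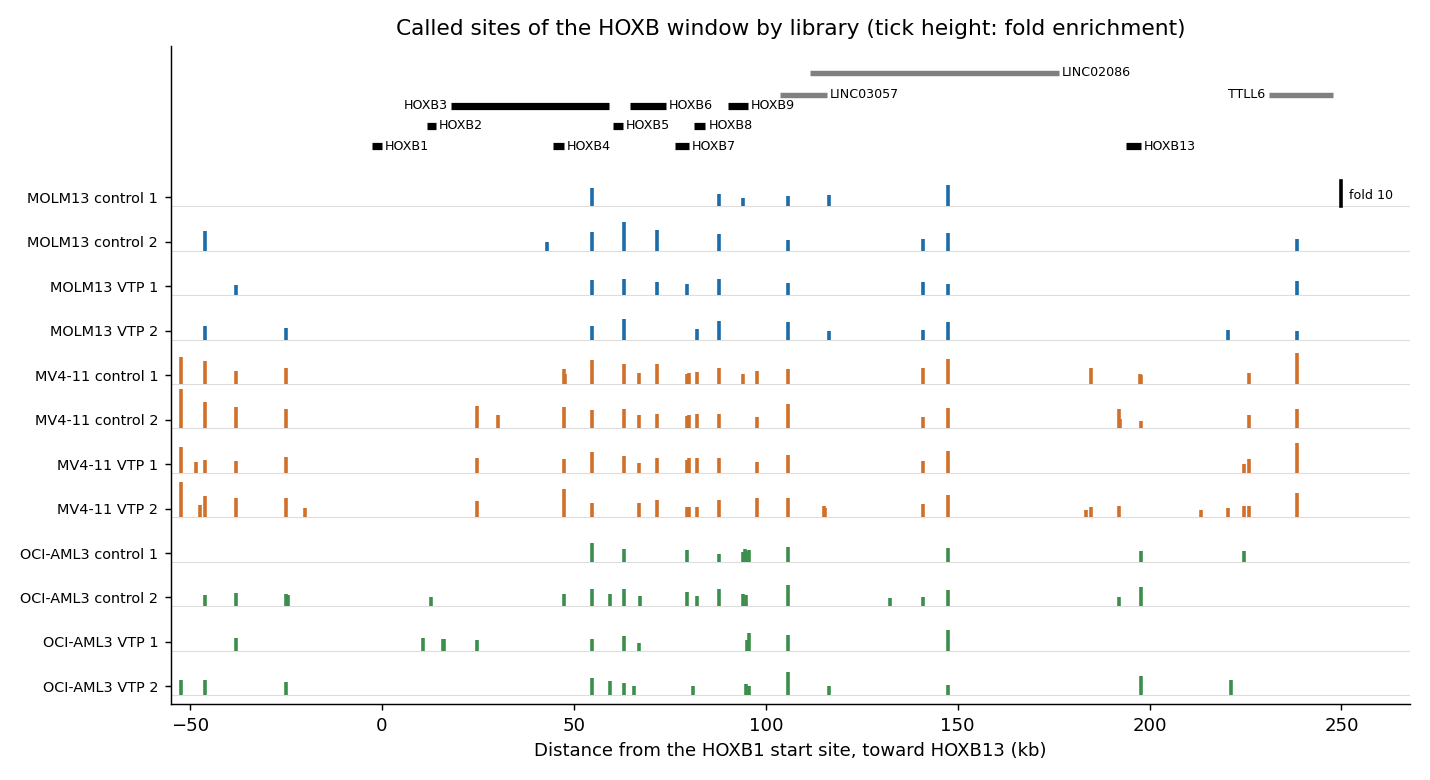
Called sites of the HOXB window in each of the 12 libraries, by distance from the HOXB1 start site in kb. Each tick is a site and its height the fold enrichment (the bar at the right stands for a fold of 10), black bars are HOXB genes and grey bars other transcripts. Ticks gather between HOXB4 and HOXB9 and are few between HOXB1 and HOXB4, and MV4-11 has the most.

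Along the cluster the sites were uneven. The stretch from HOXB4 to HOXB9, 48.0 kb long, held 18 of the 55 sites, with 3 to 5 called per MOLM13 library, 8 to 11 per MV4-11 library and 4 to 10 per OCI-AML3 library. The anterior stretch from HOXB1 to HOXB4, 49.8 kb long, held 7 sites, with 0 to 1, 0 to 2 and 0 to 4 called in these lines. The stretch from HOXB9 to HOXB13, 102.4 kb long, held 16 sites. The flank next to HOXB1 held 8 sites, with 0 to 2 per MOLM13 library, 4 to 6 per MV4-11 library and 0 to 4 per OCI-AML3 library. The flank beyond HOXB13 held 6 sites.

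Promoters of the 10 HOXB genes, taken as the 1 kb before and the 1 kb after the outer end of the RefSeq gene, separated the lines. HOXB9 had a peak in all 4 OCI-AML3 libraries and in none of the other 8, a pattern of 0.297% of the 13788 protein-coding promoters with a peak in 2 or more libraries. The pattern depends on the 1 kb limit, since a site inside HOXB9 and 1.07 kb from its start was also called in MOLM13 control 1 and MV4-11 control 1. HOXB4 had one in all 4 MV4-11 libraries and in 1 OCI-AML3 library. HOXB5 was called in 10 of 12 libraries, HOXB7 in 7, HOXB13 in 5 and HOXB3 in 2, and HOXB1, HOXB2, HOXB6 and HOXB8 in none. A library had a peak at 0 to 2 of the 10 HOXB promoters in MOLM13, 2 to 4 in MV4-11 and 2 to 6 in OCI-AML3, whereas 58.4 to 65.2% of 19626 protein-coding promoters had one. Of all these promoters 24.5% had none in any library. HOXB3 and HOXB6 are long gene models with further starts inside, which were not counted as promoters.

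**Figure D2:**
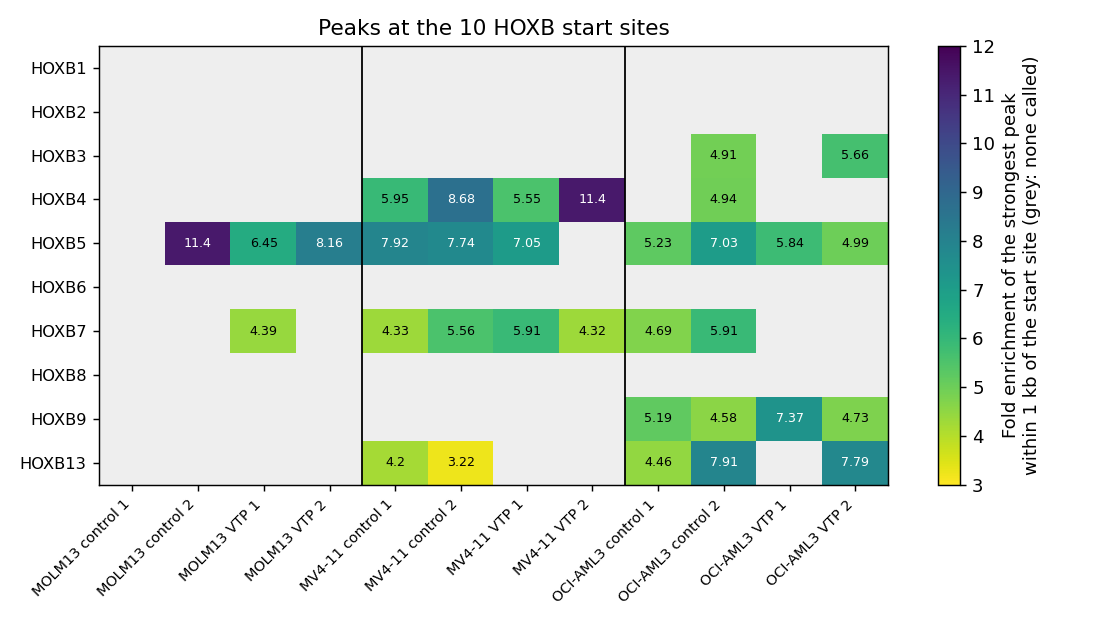
Fold enrichment of the strongest peak within 1 kb of each HOXB start site (rows) in the 12 libraries (columns), with grey where none was called. HOXB9 is filled in the 4 OCI-AML3 libraries only, HOXB4 in the 4 MV4-11 libraries and 1 OCI-AML3 library, and HOXB1, HOXB2, HOXB6 and HOXB8 in none.

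HOXB1, the most anterior gene of the cluster and a hindbrain patterning factor, had no site within its gene or promoter. HOXB2, which also patterns the hindbrain, had no promoter peak either. Inside HOXB2 and close to the start of HOXB-AS1, chr17:48543596-48543744 was called in OCI-AML3 control 2 alone, with a fold of 3.66. In the VTP50469 replicate 1 library of OCI-AML3, 3 further sites near HOXB2 were called, at chr17:48541761-48541884, chr17:48546886-48546961 and chr17:48547106-48547200, with folds of 5.02, 4.97 and 5. None of these 4 sites was called in a second library.

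HOXB3, a factor expressed in blood stem cells, is a long gene that contains HOXB4. Its outer start, next to that of HOXB-AS3, was called at chr17:48590214-48590421 in OCI-AML3 control 2, with a fold of 4.91, and in OCI-AML3 VTP50469 replicate 2, with 5.66. It was called in no MLL1-rearranged library. Within HOXB3, chr17:48555389-48555902, at the start of HOXB-AS2, had folds of 8.92 in MV4-11 control 2, 5.89 and 6.75 in the treated MV4-11 libraries, and 4.46 in OCI-AML3 VTP50469 replicate 1.

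The promoter of HOXB4, known for expanding blood stem cells when overexpressed, was open at chr17:48578113-48578741. In MV4-11 its fold was 5.95 and 8.68 in the controls and 5.55 and 11.4 after VTP50469, on 10 to 22 reads. The 2 groups overlapped. In OCI-AML3 it was called in control 2 only, with 4.94, and in MOLM13 in no library. A narrow site next to it, chr17:48578751-48578843, was called in MV4-11 control 1 with 4.12.

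The HOXB5 promoter, chr17:48593896-48594267, was the HOXB promoter called most often, 0.12 kb from the start. MOLM13 control 2 had a fold of 11.4 and the treated MOLM13 libraries had 6.45 and 8.16, while control 1 had no call. MV4-11 had 7.92 and 7.74 in the controls and 7.05 in VTP50469 replicate 1, with no call in replicate 2. OCI-AML3 had 5.23 and 7.03 in the controls and 5.84 and 4.99 after VTP50469. The 4 OCI-AML3 folds lay below the 3 MV4-11 folds, by little at 7.03 and 7.05, and overlapped with those of MOLM13. This order was not particular to HOXB5. Folds were not normalised between libraries, and the cause of the order was not tested. Of 23338 regions called in all 12 libraries, limma on log2 folds gave 7390 as lower in OCI-AML3 than in MV4-11 and 276 as higher.

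HOXB6 and HOXB8, which promote self-renewal of myeloid progenitors, had sites inside the gene or upstream of it rather than at the start. Inside HOXB6, chr17:48602484-48602863 had folds of 8.45 and 5.35 in MOLM13 control 2 and VTP50469 replicate 1. In MV4-11 this site had 8.12 and 5.96 in the controls and 5.96 and 6.93 after VTP50469. No OCI-AML3 library had it. Also inside HOXB6, chr17:48597696-48598265 was called in all 4 MV4-11 libraries, with folds from 3.85 to 5.86, and in OCI-AML3 VTP50469 replicate 1 with 3.18. Inside HOXB8, chr17:48612928-48613285 was called in all 4 MV4-11 libraries, in MOLM13 VTP50469 replicate 2 and in OCI-AML3 control 2, with folds from 4.09 to 6.13.

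HOXB7, a factor linked to proliferation in several cancers, had 2 neighbouring sites at its start. The one further inside the gene, chr17:48610375-48610756, had folds of 3.88, 4.88, 5.09 and 4.32 in MV4-11, 4.69 and 5.91 in the OCI-AML3 controls and 4.39 in MOLM13 VTP50469 replicate 1. The one over the start, chr17:48610839-48611111, had 4.33 and 5.56 in the MV4-11 controls and 5.91 and 4.26 after VTP50469, and no call elsewhere.

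HOXB9, the most posterior gene before the long gap to HOXB13, had the promoter that separated OCI-AML3. Its peaks there fell on different bases in different libraries. In OCI-AML3 control 1 it had folds of 5.19 at chr17:48625572-48625689, 4.22 at chr17:48625797-48625971 and 4.72 at chr17:48626442-48626815. Control 2 had 4.58 at the second of these. VTP50469 replicate 1 had 7.37 at the third and 4.57 at chr17:48626208-48626283, and replicate 2 had 4.73 at the second and 3.73 at the third. The peaks rested on 7 to 17 reads. Just beyond the limit, chr17:48625014-48625290 inside HOXB9 had folds of 3.22 in MOLM13 control 1, 4.1 in MV4-11 control 1, and 4.2 and 5.05 in the OCI-AML3 controls. The pattern of HOXB9 also held when each library was cut to its 68670 strongest peaks. It holds by definition in the control libraries alone, since they are part of the 12, so that adds no support. HOXA7, 1 of 11 HOXA genes, had the same pattern. Only the VTP50469 replicate 1 peak passed a −log10 q of 5, so HOXB9 did not have the pattern at that stricter level. The reverse pattern, all 8 MLL1-rearranged libraries and no OCI-AML3 library, was met by no HOXB promoter beside 0.616% of promoters. No HOXB promoter was called in all 4 MV4-11 libraries and nowhere else, beside 0.791%, and none was called in all 12, beside 72.7%.

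HOXB13, a posterior factor known from prostate, had a site over its start at chr17:48728630-48728838. Its fold was 4.46 and 7.91 in the OCI-AML3 controls, 7.79 in VTP50469 replicate 2, and 3.73 and 3.22 in the MV4-11 controls. Neither treated MV4-11 library and no MOLM13 library had it. MV4-11 control 1 also had a fold of 4.2 at chr17:48728367-48728442 beside it. The PRAC1 and PRAC2 genes, which are also known from prostate and colon, shared chr17:48722870-48723169, called in MV4-11 control 2 with 7.72, MV4-11 VTP50469 replicate 2 with 4.7 and OCI-AML3 control 2 with 3.75. MV4-11 control 2 had a further narrow site beside it, with 3.83. In the gap between HOXB9 and HOXB13, chr17:48671758-48672064 inside LINC02086 was called in 8 libraries, namely 3 of MOLM13, 4 of MV4-11 and OCI-AML3 control 2, with folds from 3.96 to 6.61. At the start of LINC03057, chr17:48647422-48647755 had folds of 4.47 and 3.3 in MOLM13 control 1 and VTP50469 replicate 2, and 3.96 in OCI-AML3 VTP50469 replicate 2.

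No HOXB site was called in all 4 OCI-AML3 libraries and in none of the 8 MLL1-rearranged libraries, beside 0.547% of regions called in 2 or more libraries. None was called in all 8 MLL1-rearranged libraries and in no OCI-AML3 library, beside 2.17%. The nearest to the latter was chr17:48769175-48769828, inside the tubulin ligase gene TTLL6, with folds of 4.72 in MOLM13 control 2, 5.84 and 3.3 in treated MOLM13, 12.7 and 7.79 in the MV4-11 controls and 12.3 and 10 in treated MV4-11. MOLM13 control 1, which had the fewest peaks of the window, lacked it, and without that library the count was 1. In contrast, 3 sites were called in all 4 MV4-11 libraries and in no other, which is 10.3% of the 29 HOXB sites called in 2 or more libraries beside 4.49% over the genome. They were the site over the HOXB7 start, the HOXB-AS4 site and chr17:48756906-48757210, which lies between HOXB13 and TTLL6. The HOXB-AS4 site, chr17:48628715-48628857, had folds of 5.32, 4.71, 4.59 and 7.98 in MV4-11, and the third had 4.49, 5.56, 5.71 and 4.46. MV4-11 also had the most peaks, and with 68670 peaks per library the count was 0. No site was called in all 4 MOLM13 libraries and nowhere else, beside 0.277%.

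**Figure D3:**
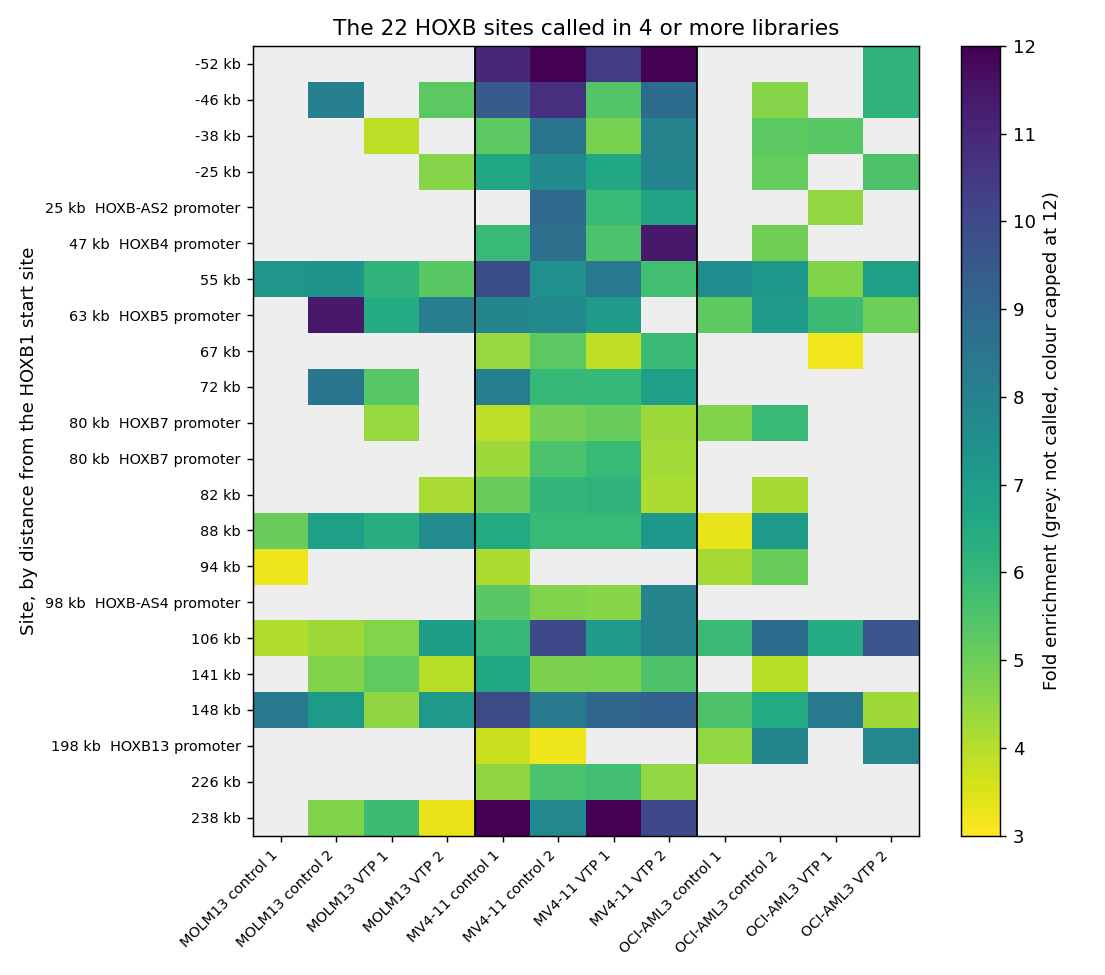
Fold enrichment at the 22 HOXB sites called in 4 or more libraries, in order along the cluster (rows, by distance from the HOXB1 start site in kb) and by library (columns), with grey where no peak was called and the colour capped at a fold of 12. All 4 MV4-11 columns are filled at 18 sites, and 3 rows are filled across all 12 libraries.

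The strongest sites of the window by −log10 q differed between lines. In MV4-11 the highest values were 32.6 at chr17:48478333-48478760, which crosses the outer edge of the window next to HOXB1, 21.7 at the TTLL6 site and 19.6 at the HOXB4 promoter. In MOLM13 they were 18.8 at the HOXB5 promoter, 10.8 at the HOXB6 site and 10.1 at a site inside LINC02086. In OCI-AML3 they were 14.2 at a site inside LINC03057, 10.3 at the LINC02086 site and 10.3 at the HOXB9 promoter, with the same rounded value at the HOXB5 promoter and at the site between HOXBLINC and HOXB5. The edge site had folds of 11 and 15.8 in the MV4-11 controls, 10.4 and 14.4 after VTP50469, and 6.13 in OCI-AML3 VTP50469 replicate 2. The nearest regions outside the window lay 7893 bp and 11923 bp from it and were called in 2 libraries and 1 library. On the same flank, chr17:48484914-48485130, chr17:48492610-48493080 and chr17:48505851-48506147 were called in all 4 MV4-11 libraries and in 8, 7 and 7 libraries in all, with folds from 3.89 to 10.8.

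Of the 3 sites called in all 12 libraries, none was at a HOXB start. The first, chr17:48585310-48585975, lies inside the HOXB3 gene model between HOXBLINC and HOXB5. HOXBLINC, chr17:48580317-48584924, had 0 sites inside it, and this one lay 0.39 kb from its end. Its fold was 7.32 and 7.34 in the MOLM13 controls and 6.16 and 5.31 after VTP50469. In MV4-11 it was 9.83 and 7.43, then 8.34 and 5.73. In OCI-AML3 it was 7.61 and 7.19, then 4.71 and 6.9. Treated libraries lay below both controls in MOLM13 and OCI-AML3, and the groups overlapped in MV4-11. How many other regions had this order was not counted. In the limma fits within a line, described below, the site passed in neither MOLM13 (adjusted p = 0.912) nor OCI-AML3 (adjusted p = 0.921).

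The second, chr17:48636569-48636870, lies inside LINC03057, a long noncoding RNA gene, 10.21 kb beyond the HOXB9 start. Its fold was 4.08 and 4.28 in the MOLM13 controls and 4.67 and 6.94 after VTP50469. In MV4-11 it was 6.01 and 10, then 7.16 and 7.96. In OCI-AML3 it was 5.86 and 8.83, then 6.48 and 9.62. In MOLM13, 3 of the 4 values lay below every value of the other lines.

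The third, chr17:48678150-48678889, lies inside LINC02086, another long noncoding RNA gene, in the gap before HOXB13. Its fold was 8.36 and 7.11 in the MOLM13 controls and 4.48 and 7.16 after VTP50469. In MV4-11 it was 9.92 and 8.33, then 9 and 9.21. In OCI-AML3 it was 5.51 and 6.51, then 8.33 and 4.29. The 4 MV4-11 values were high and close together, and both other lines spread widely.

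**Figure D4:**
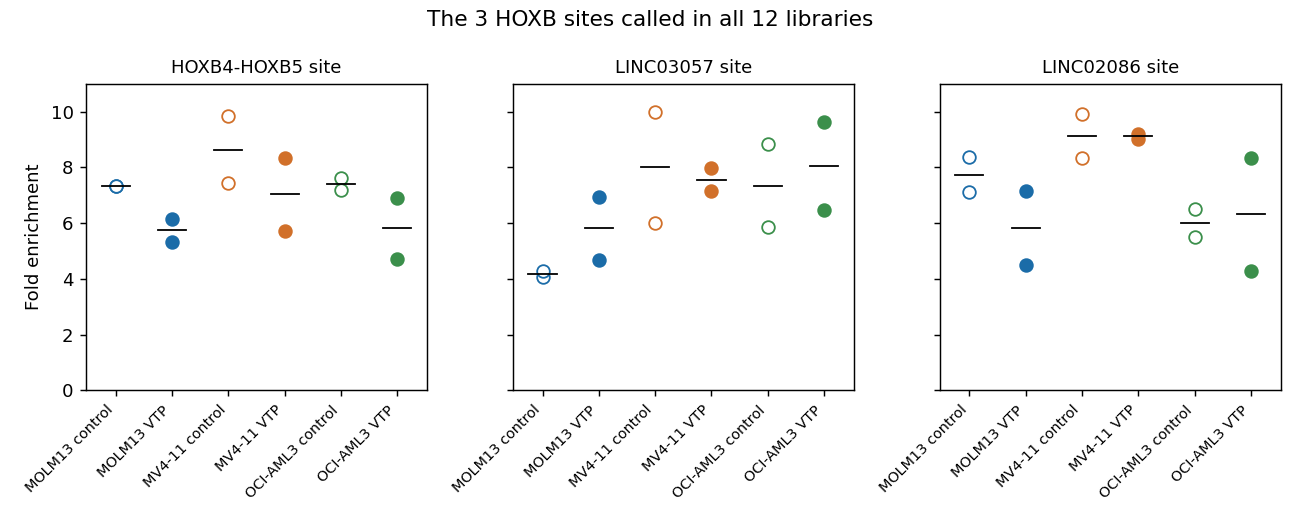
Fold enrichment of the 3 HOXB sites called in all 12 libraries, by line and treatment. Open circles are control and filled circles VTP50469 libraries, each group has 2 libraries, and the black line is their mean. At the LINC03057 site the MOLM13 controls, at 4.08 and 4.28, are the lowest values.

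These 3 sites were tested within the fit over all 23338 regions called in all 12 libraries, with limma on normal scores of the rank of the fold within a library. A difference on this scale is in SD of the ranks of a library. At the LINC03057 site OCI-AML3 was higher than MOLM13 by 1.44 ± 0.35 (SE, adjusted p = 0.0199). Against MV4-11 the difference was 0.60 ± 0.35 (adjusted p = 0.267), so the site did not pass against both lines. MOLM13 minus MV4-11 was -0.83 ± 0.35 there (adjusted p = 0.192). The call against MOLM13 rested on single libraries. It was lost without MOLM13 control 1 (adjusted p = 0.0608), MOLM13 control 2 (0.0524), MOLM13 VTP50469 replicate 1 (0.0866), OCI-AML3 control 2 (0.0675) or OCI-AML3 VTP50469 replicate 2 (0.0676).

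At the site between HOXBLINC and HOXB5, OCI-AML3 minus MOLM13 was 0.15 ± 0.35 (adjusted p = 0.848) and OCI-AML3 minus MV4-11 was 0.18 ± 0.35 (adjusted p = 0.78). At the LINC02086 site the differences were -0.10 ± 0.39 (adjusted p = 0.91) and -0.48 ± 0.39 (adjusted p = 0.441). No HOXB site passed in OCI-AML3 against both other lines, beside 4.29% of all regions tested, and 0 of 3 had an unadjusted limma p under 0.05 against both. Over all regions 475 passed as higher and 526 as lower in OCI-AML3, whereas log2 folds gave 115 and 1261 and log2 summit reads 1822 and 1238. For OCI-AML3 against MOLM13 alone 1 of 3 passed beside 8.79%. Against MV4-11 0 of 3 passed beside 13.6%, with 0 at an unadjusted p under 0.05, and for MOLM13 against MV4-11 0 of 3 passed beside 4.42%, with 1 at that level. When the reads over the summit, centred on the median of each library, replaced the fold, the LINC03057 site and the site between HOXBLINC and HOXB5 passed in OCI-AML3 against both lines. On the log2 scale of those reads the first was higher by 1.22 than in MOLM13 and by 0.96 than in MV4-11 (adjusted p = 0.000622 and 0.00343), and the second by 0.73 and 0.72 (adjusted p = 0.0203 and 0.0249).

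VTP50469 gave no call at any HOXB site in the limma fits. In MOLM13 4 HOXB sites were fitted, in MV4-11 18 and in OCI-AML3 4, and none of them passed at an unadjusted p under 0.05 either. Over the genome these fits called 0% of 41518, 70124 and 30982 regions, with 2329, 4613 and 1797 at an unadjusted p under 0.05. The shifts at HOXB sites ran from -1.05 ± 0.50 (SE, LINC02086 site, adjusted p = 0.884) to 0.86 ± 0.46 (LINC03057 site, adjusted p = 0.905) in MOLM13. In MV4-11 the largest shift was -0.82 ± 0.46 in the flank next to HOXB1 (adjusted p = 0.794), and at the HOXB4 promoter it was 0.31 ± 0.55 (adjusted p = 0.952). In OCI-AML3 the shift was -0.14 ± 0.47 at the HOXB5 promoter (adjusted p = 0.987) and at the site between HOXBLINC and HOXB5 -0.58 ± 0.52 (adjusted p = 0.921).

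Over the 3 lines together the mean shift was -0.65 ± 0.29 at the site between HOXBLINC and HOXB5 (unadjusted p = 0.0405, adjusted p = 0.77 in limma), 0.39 ± 0.29 at the LINC03057 site (adjusted p = 0.871) and -0.32 ± 0.32 at the LINC02086 site (adjusted p = 0.91). None of the 3 passed, beside 0% of 23338 regions, of which 1495 had an unadjusted p under 0.05. For the difference between the shift in OCI-AML3 and the mean shift of the MLL1-rearranged lines limma gave no call at the 3 sites, with values of 0.09 ± 0.61, 0.07 ± 0.61 and 0.62 ± 0.68 (smallest adjusted p = 0.911), beside 0% of regions, of which 1578 had an unadjusted p under 0.05.

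Calls that disappeared or appeared with VTP50469 were few and weak. A site was lost when both controls of a line and neither treated library had it, and gained in the reverse case. OCI-AML3 lost 3 of its 14 HOXB sites called in 2 or more libraries, or 21.4%, beside 6.79% of all its regions, and gained 0 beside 3.48%. Leaving out a library loosens the rule to 1 control or 1 treated library, so the counts tend to rise. Shares of all regions under the looser rule are not given here, so the next counts do not test the 3 losses. OCI-AML3 lost 11 and gained 1 without its control 1, lost 5 and gained 0 without control 2, lost 3 and gained 4 without VTP50469 replicate 1, and lost 5 and gained 6 without VTP50469 replicate 2. MV4-11 lost 1 of 23, beside 4.85%, and gained 1, beside 3.39%. MOLM13 lost 0 of 10, beside 2.84%, and gained 0, beside 7.03%. In OCI-AML3 the losses were the HOXB7 site inside the gene, with folds of 4.69 and 5.91 in the controls, a site 3.33 kb upstream of HOXB8, chr17:48618618-48619005, with 3.32 and 7.08, and the site inside HOXB9 1.07 kb from its start, with 4.2 and 5.05. They rested on 5 to 12 reads. The site upstream of HOXB8 kept its call in all 8 MLL1-rearranged libraries, with folds from 5.06 to 7.65. In MV4-11 the HOXB13 promoter was lost, on 6 and 5 reads, and chr17:48755472-48755615 was gained, with 3.81 and 4.69.

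None of these losses and gains had a −log10 q of 5 or more in both libraries that carried it, and at that level the count was 0 in every line. The treated OCI-AML3 libraries had 77074 and 68670 peaks and the controls 70454 and 94529. The part of this difference in the losses was not tested, and with 68670 peaks in every library OCI-AML3 lost 2 HOXB sites. By the same rule the HOXA window of OCI-AML3 lost 2 and gained 3 of 27 sites, the HOXC window lost 1 and gained 0 of 5, and the HOXD window lost 0 and gained 0 of 5.

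The share of a library's peaks that fell in the HOXB window set MOLM13 apart. Per 10000 peaks, MOLM13 had 1.09 ± 0.237 (SD, n = 4 libraries of both treatments), MV4-11 had 2.08 ± 0.0856 and OCI-AML3 had 1.88 ± 0.304. MOLM13 libraries ranged from 0.756 to 1.26, MV4-11 libraries from 1.97 to 2.16 and OCI-AML3 libraries from 1.56 to 2.22, so MOLM13 did not overlap with the others, and OCI-AML3 and MV4-11 did. The ratio of OCI-AML3 to MOLM13 was 1.73 and that of OCI-AML3 to MV4-11 was 0.902. The latter turned to 1.15 without the flanks and was 0.694 when peaks under a −log10 q of 5 were dropped. In peaks, MOLM13 had 6 and 10 in the controls and 12 and 13 after VTP50469, MV4-11 26 and 26, then 25 and 31, and OCI-AML3 12 and 21, then 12 and 14. Among the 68670 strongest peaks of each library, MOLM13 had 4 to 8 in the window, MV4-11 12 to 16 and OCI-AML3 11 to 15.

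The HOXA window, cut by the same rule, held 2.03 ± 0.293 per 10000 peaks of MOLM13, 2.22 ± 0.238 of MV4-11 and 3.12 ± 0.687 of OCI-AML3. The HOXC window held 0.659 ± 0.209, 0.93 ± 0.138 and 0.792 ± 0.111, and the HOXD window 1.15 ± 0.188, 0.953 ± 0.223 and 0.89 ± 0.119. In each of HOXA, HOXC and HOXD the ranges of MOLM13 and MV4-11 overlapped. At start sites, 3 of 11 HOXA genes were called in all 12 libraries, HOXA10 and HOXA13 among them, and 0 of 10 HOXB, 0 of 9 HOXC and 0 of 9 HOXD genes were. The HOXA window had 5 of its 43 sites called in 2 or more libraries present in all 12, the HOXB window 3 of 29, the HOXC window 0 of 15 and the HOXD window 1 of 18.

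**Figure D5:**
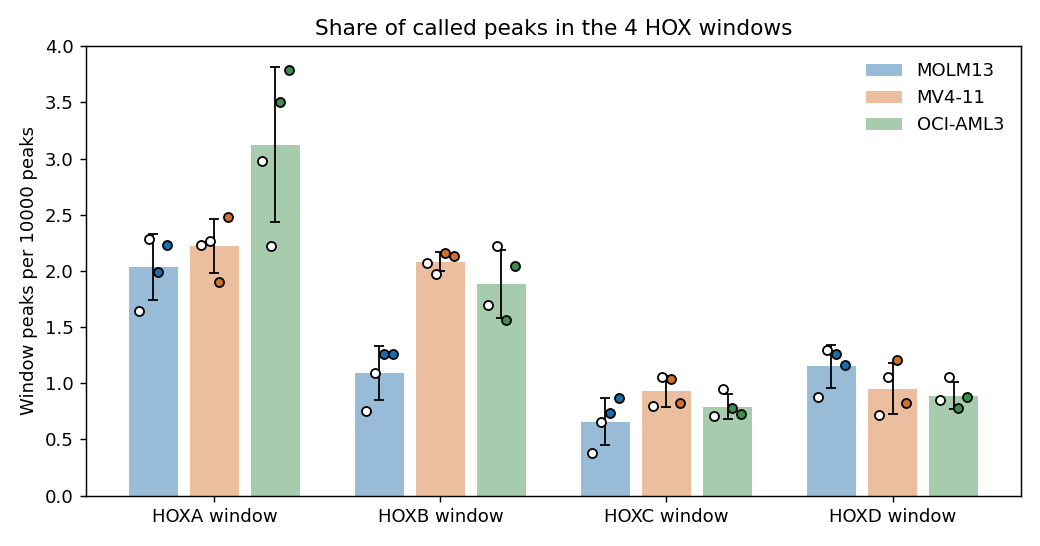
Peaks in the HOXA, HOXB, HOXC and HOXD windows per 10000 peaks of the library, by line. Bars are means and whiskers SD over 4 libraries, open circles control and filled circles VTP50469 libraries. In the HOXB window MOLM13 (0.756 to 1.26) lies below MV4-11 and OCI-AML3 (1.56 to 2.22).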

How the data were processed

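Peaks had been called by the authors in each library with MACS2 2.1.0 on hg38, after bcl2fastq 2.17, Trimmomatic 0.33, Bowtie 1.1.2 and deepTools per the labels, whereas the supplementary methods name TopHat2. Threshold, duplicate handling and read shift are not given in the sources used here. The deposited score is a rounded −log10 q, the deposited fold a ratio of summit reads to local background, and the deposited −log10 p and −log10 q those of the summit. Nothing was normalised between libraries.

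Peaks on chromosomes 1 to 22 and X (1199477 of 1200433) that overlapped by 1 bp were merged over the 12 libraries, or over the 4 of a line for VTP50469. Summit reads were recovered from fold and p (tolerance 0.001, at least 99.991% of peaks), count error only. Depth in reads is not in the lists. Ranks of folds were compared with limma 3.58.1 in R 4.3.3 (model of 6 groups, two-sided, Benjamini-Hochberg over all regions, threshold 0.05). The fit over 12 libraries was checked on simulated data with large planted shifts. Small shifts and the fits within a line were not simulated. The replicate numbers were not used to pair libraries in the main fits. Genes came from RefSeq GRCh38.p14, strands from GENCODE by symbol, and exons were not used.

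Members, lists and tests were chosen with earlier results of these data known. Sites were named when they were called in all 12 libraries, confined to one class of line, lost or gained, among the 3 strongest of a line, or at a HOXB promoter, antisense transcript, MIR10A, MIR196A1, PRAC1 or PRAC2. Promoter patterns, OCI-AML3 against each line alone, the MV4-11 pattern and equal peak numbers were added after seeing the data, as were the other HOXB2 sites and flank sites named. Some listed genes are not reported here.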

Additional observations from a re-analysis of the deposited data

How the results depend on the processing

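Summit depth limits these results, since a site of fewer than 3 to 5 reads could not be called, and with 2 libraries per group a treatment shift has to be large to pass. With summit reads 2 HOXB sites passed in OCI-AML3 against both lines, 2 against MOLM13 and 2 against MV4-11. With a floor for uncalled regions the counts were 1, 2 and 11 of 22 fitted, and 10 for MOLM13 against MV4-11. Over all 97139 regions 1822 were then higher and 12879 lower, 4803 and 14672, 2746 and 44592, and 1806 and 23834. The 22 sites were those with 4 or more calls, which MV4-11 alone could supply, and it had all 4 calls at 18 of them. The floor was the lowest fold of each library, 1.36 to 1.58, whereas called folds of the window began at 3.07. These counts therefore largely restate which libraries had a call. With log2 folds the counts were 0 against MOLM13 and 1 of 3 against MV4-11, where 7390 of all 23338 regions passed as lower in OCI-AML3. The mean fold of each of these 3 sites was lower in OCI-AML3 than in MV4-11, at 6.6 beside 7.83, 7.7 beside 7.79 and 6.16 beside 9.11. The call against MOLM13 was 0 with control libraries only, with 68670 peaks each and at a −log10 q of at least 5, where no HOXB site was left to fit, and 0 to 1 without single libraries. At the LINC03057 site OCI-AML3 minus MV4-11 was -0.02 with log2 folds, which were not centred: over all regions 276 were then higher and 7390 lower in OCI-AML3 than in MV4-11, beside 1483 and 1690 with ranks and 3690 and 2264 with reads. Against MOLM13 they were 594 and 1397, 1099 and 952, and 3373 and 3368, and in MOLM13 against MV4-11 111 and 2982, 312 and 720, and 2941 and 1664.

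Sites in all 4 OCI-AML3 libraries alone numbered 1 with controls only and 1 without OCI-AML3 control 2 or VTP50469 replicate 1 (0 to 1 without single libraries). Sites in all 8 MLL1-rearranged libraries alone numbered 1 without MOLM13 control 1 (0 to 1). Sites of MV4-11 alone numbered 5 with controls only and 0 with equal peak numbers. HOXB9 alone had the OCI-AML3 promoter pattern, and no promoter had it at a −log10 q of at least 5, where HOXB4 had the MV4-11 pattern. That pattern held for 0 to 1 promoters without single libraries, with HOXB4 when OCI-AML3 control 2 was left out. Losses and gains numbered 0 at a −log10 q of at least 5, 3 with equal peak numbers and 6 to 15 without single libraries, most without MV4-11 VTP50469 replicate 1, where 1 treated library is left to meet the rule. The OCI-AML3 to MV4-11 ratio of window shares was 0.694 at that level and 1.15 without flanks, and the MV4-11 to MOLM13 ratio, 1.91 in the main analysis, was 2.4, 1.56 and, with equal peak numbers, 2.08.

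The replicate numbers are shared between groups. Differences between replicates correlated by 0.01 to 0.04 between control and treated libraries of a line. No pairing by number was seen in these values, but they cannot show that none existed. With a replicate block the smallest adjusted p in limma over all OCI-AML3 regions was 0.0662, beside 0.82 without it. With a replicate block 1 HOXB site passed in OCI-AML3 against MOLM13 and 0 in every other fit, as without it. The cause of these changes was not tested.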
